A study of Mus musculus with 28 samples.

Results

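The smooth muscle contractile genes described here are 35 listed mouse genes that build, switch on or regulate the contractile machinery of smooth muscle. Each was found as 1 of the 53647 gene IDs of the deposited count table. Levels and changes are reported in mural and endothelial cells sorted from brains with breast or lung cancer metastases (BrM) and from non-tumor brain.

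Smooth muscle cells wrap arteries and arterioles, and pericytes wrap capillaries. Calcium entering through voltage-gated channels, or released from the sarcoplasmic reticulum, binds calmodulin and activates the myosin light chain kinase Mylk. The kinase phosphorylates the regulatory light chain Myl9, and the heavy chain Myh11 then pulls on actin filaments made of Acta2, to which Tagln, Cnn1, tropomyosins and caldesmon bind. Myosin phosphatase reverses the step. Many of these genes are switched on by serum response factor (SRF) together with its coactivator myocardin, which act at a DNA motif called the CArG box.

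The 28 libraries fall into 6 groups, 2 sorts by 3 states. Every mouse carried PDGFRβ-CreERT2 and a Rosa-tdTomato reporter and received 2 mg tamoxifen daily for 5 days, so Cre driven by the mural gene Pdgfrb marked the cells with tdTomato in tumor and non-tumor brains alike. Breast BrM arose from intracardiac injection of PyMT-BrM3 cells, lung BrM from Sv2T3-BrM1 cells, and each state has 1 tumor line. Cells negative for CD45, CD11B and EPCAM were sorted as CD31+ (endothelial) or as PDGFRβ-tdTom+ (mural). The PDGFRβ sort has 5 non-tumor, 4 breast BrM and 4 lung BrM libraries and the CD31 sort has 5 of each. They come from 15 mice or pools of mice, and 2 of the lung labels name more than 1 mouse number. Age and sex are not given in the sources used here.

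Promoter sequences are shown for 4 members, because the results below set them apart: Acta2, Myl9 and Pln were far lower per total count in mural libraries of lung BrM while Myl6 did not pass the test. Set against Pdgfrb, Acta2 and Myl9 in lung BrM overlapped non-tumor brain, and Pln was below it in every library. Each line is the 250 bases before the gene start, 5′ to 3′ on the gene's strand, from RefSeq on GRCm38.p6. Capitals mark a CArG box, exact or with 1 letter changed.
Acta2: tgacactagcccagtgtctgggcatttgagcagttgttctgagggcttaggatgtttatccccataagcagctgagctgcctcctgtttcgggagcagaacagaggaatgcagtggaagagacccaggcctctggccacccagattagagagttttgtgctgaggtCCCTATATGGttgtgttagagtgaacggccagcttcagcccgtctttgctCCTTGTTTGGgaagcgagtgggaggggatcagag
Myl9: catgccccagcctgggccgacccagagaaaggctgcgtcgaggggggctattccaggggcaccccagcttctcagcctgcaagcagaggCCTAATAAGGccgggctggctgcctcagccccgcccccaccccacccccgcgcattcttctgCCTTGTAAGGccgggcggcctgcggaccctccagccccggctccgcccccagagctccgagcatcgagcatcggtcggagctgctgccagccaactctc
Myl6: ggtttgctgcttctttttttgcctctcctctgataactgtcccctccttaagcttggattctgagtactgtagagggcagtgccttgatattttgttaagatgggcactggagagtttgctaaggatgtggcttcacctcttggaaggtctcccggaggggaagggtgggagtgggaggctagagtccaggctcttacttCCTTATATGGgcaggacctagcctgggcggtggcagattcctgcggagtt
Pln: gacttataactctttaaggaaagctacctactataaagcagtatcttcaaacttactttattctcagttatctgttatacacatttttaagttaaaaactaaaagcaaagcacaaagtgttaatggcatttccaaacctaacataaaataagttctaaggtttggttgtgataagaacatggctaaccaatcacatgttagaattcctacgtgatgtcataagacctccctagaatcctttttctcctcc
The windows lie at chr19:34255374-34255623 (minus strand) for Acta2, at chr2:156775214-156775463 (plus strand) for Myl9, at chr10:128493010-128493259 (minus strand) for Myl6 and at chr10:53337436-53337685 (plus strand) for Pln. The motif was searched on both strands in windows of 300 bases, from 250 before to 50 after the gene start, and no second motif was searched. Windows were found for 28 of the 35 members (33 windows). Myh11, Tagln, Actg2, Myocd, Cacna1h, Map3k7cl and Nrip2 had none. An exact box stood in windows of 2 members, 161 bases before the start of Myl9 and 50 before that of Myl6, against 1.81% of all genes with a window. With 1 letter changed allowed, 5 of 28 members (17.9%) had a box against 11.3% of all genes with a window. Acta2 had boxes with 1 letter changed at 84 and 34 bases before its start, Myl9 had another at 99, Cacna1c had them at 84 and 30 in 2 of its windows, and Pdlim3 had 1 at 100. These matches describe letters and not binding.

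Some libraries stand apart, and the results below are given with and without them where they matter. Per library the total was 7.11 to 23.9 M counts. On these totals, before scaling between libraries, the level that 3 counts allow is 0.125 to 0.422 CPM (counts scaled to a common library total), for counting error only. Pecam1, the gene of CD31, was at 591.8 to 1437 CPM in the CD31 sort and at most 11.5 CPM in the PDGFRβ sort. Pdgfrb was at 855.7 to 1470 CPM in mural libraries of non-tumor brain and at 302.3 to 1386 in those of breast BrM. In lung BrM it was at 465.7 CPM in mouse 51435 but at only 36.9, 36.0 and 42.2 CPM in the other libraries, where the label mural therefore rests on a low level of its defining gene. The 12 pericyte markers together were at 15410 to 27610 CPM in non-tumor mural libraries, at 5431 to 15050 in breast BrM and at 205.0 to 8051 in lung BrM. The 8 epithelial markers, which mark carcinoma cells, moved the other way: 5.18 to 75.0 CPM in non-tumor, 1042 to 4160 in breast BrM and 6126 to 9972 in lung BrM, with none at 0 in every library. In bulk samples fewer cells of a type and less RNA per cell cannot be told apart. In mouse 54135 the title and the cell type label name opposite sorts. Its libraries were grouped by title, under which the PDGFRβ library held 855.7 CPM of Pdgfrb and 4.01 of Pecam1. Its CD31 library held 0.227 CPM of Pdgfrb and 1362 of Pecam1. Both genes go with the titles, so the reading by cell type label places an endothelial library among the mural ones. Column names carry 6 dates whose meaning is not stated, and breast and lung BrM share none of them.

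**Figure D1:**
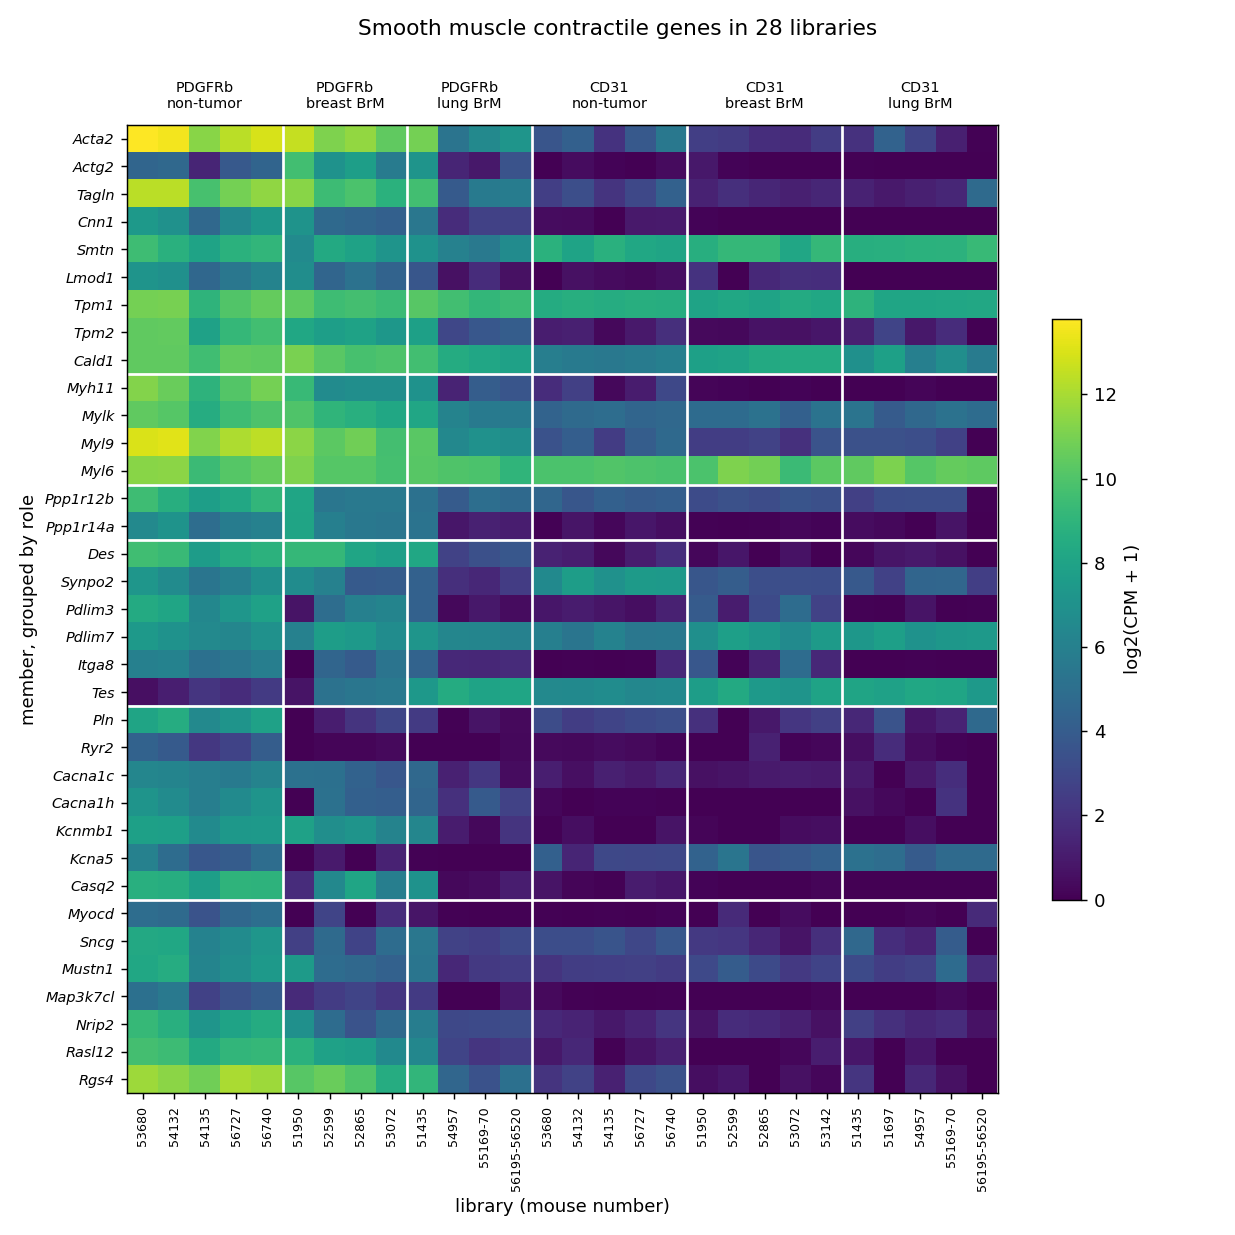
Level of the 35 members (rows, ordered by role) in the 28 libraries (columns, ordered by sort and state), as log2(CPM + 1) in colour. White lines separate groups and roles. Most members are bright in the non-tumor PDGFRβ libraries, dimmer in breast BrM and dark in the lung BrM libraries other than mouse 51435, while the CD31 libraries show a few members, among them Myl6, Tpm1, Smtn, Synpo2 and Tes.

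In non-tumor brain the contractile genes were mural. Of the 35 members, 30 were higher and 1 lower in the PDGFRβ than in the CD31 sort, against 27.9% of 18548 genes called (17.4% higher, 10.5% lower) (quasi-likelihood test of edgeR, called at an adjusted p under 0.05 after Benjamini-Hochberg, here and below). The median member differed by 7.45 on the log2 scale and the median gene by 0.10. Acta2, smooth muscle actin, differed by 8.85 ± 1.22 (log2 ± SE, 460.3-fold, adjusted p = 3.03e-06), Myh11 by 8.92 ± 1.09 (adjusted p = 4.73e-07) and Cacna1h, a T-type calcium channel, by 10.10 ± 1.45. The smallest called differences were 1.83 for Tpm1 and 1.21 for Pdlim7. Tes, a LIM-domain protein of focal adhesions, was the member that was lower, by -5.31 ± 0.62 (adjusted p = 2.54e-07). Smtn, Myl6, Synpo2 and Kcna5 did not pass the test. Read by the cell type label of mouse 54135, which its Pdgfrb and Pecam1 levels go against, 0 members were called (25 at an unadjusted p under 0.05). Without that mouse 32 were called.

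Compared per length, the regulatory light chain Myl9 was the most abundant transcript of all 18665 genes in the deposited FPKM table of non-tumor mural cells, at 7718 ± 3216 FPKM (SD, n = 5). Acta2 was 7th at 5422 ± 2787 FPKM, the non-muscle and smooth muscle light chain Myl6 9th at 4670 ± 2162, and Tagln 17th at 2823 ± 1546. These SDs span the gaps between neighbours, so the order of Acta2 and Myl6 is not resolved. Rgs4, an inhibitor of G protein signalling, followed at 1345 ± 381.0 FPKM, then Tpm2 at 1056 ± 553.2 and Tpm1 at 1046 ± 406.2. Myh11 was at 268.0 ± 126.3 FPKM and Des, the muscle intermediate filament, at 207.4 ± 81.1. The coactivator Myocd was at 11.3 ± 4.50, and the sarcoplasmic calcium release channel Ryr2 (1.66 ± 0.993) and Tes (1.21 ± 0.810) were lowest. In the CD31 sort Myl6 led at 2220 ± 122.2 FPKM, ahead of Tpm1 at 268.8 ± 16.8, Smtn at 113.1 ± 30.1 and Tes at 39.7 ± 3.39, and Acta2 was at 11.1 ± 10.1.

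The mural levels were not even among the 5 non-tumor mice. Below, CPM values are listed in the order of mice 53680, 54132, 54135, 56727 and 56740 for non-tumor, 51950, 52599, 52865 and 53072 for breast BrM, and 51435, 54957, 55169-70 and 56195-56520 for lung BrM. Members together took 4.93, 4.48, 1.28, 2.54 and 3.29% of the scaled library total (their summed CPM) in the non-tumor libraries. Mouse 54135 was lowest in 32 of the 35 members, mice 53680 and 54132 were the 2 highest in 22. The share was 2.38, 1.19, 1.23 and 0.724% in breast BrM and 0.987, 0.299, 0.260 and 0.239% in lung BrM. In the CD31 sort it was 0.212 to 0.231% in non-tumor, 0.203 to 0.404% in breast BrM and 0.248 to 0.370% in lung BrM.

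In mural cells of breast BrM the largest falls were those of Pln, Ryr2 and Kcna5, genes of calcium handling and ion channels, while neither the actin Acta2 nor the myosin Myh11 passed the test of edgeR. Of 35 members 6 fell and 1 rose, against 8.99% of 17028 genes called (6.3% higher, 2.69% lower). The median member was at -1.45 on the log2 scale and the median gene at -0.16, and 30 members were below 0. Within dates the members differed: on the earlier of the dates that both states share (2 breast and 1 non-tumor library) 31 were lower and 4 higher, with a median of -1.82 on log2(CPM + 1), and on the later (also 2 and 1) 20 were lower and 15 higher, with a median of -0.11. Channels and calcium handling gave 3 of 7 lower, regulators and others 2 of 7, and the myosin phosphatase 1 of 2. With the date in the column names as a covariate 0 were called (13 at an unadjusted p under 0.05), and without breast mouse 52865 or without non-tumor mouse 53680 the count was 4 each. With mouse 54135 read by its cell type label it was 3. In the same libraries 6 of 8 epithelial markers rose, 0 of 12 pericyte markers passed, 2 of 6 astrocyte markers fell and 1 rose, 2 of 10 endothelial and 1 of 8 fibroblast markers rose and 2 of 4 neuron markers fell. The part of these in the results was not tested.

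Pln, the phospholamban that restrains the calcium pump of the sarcoplasmic reticulum, was at 265.4, 369.6, 90.1, 142.0 and 235.3 CPM in non-tumor mural libraries, at 0, 1.17, 3.15 and 6.49 in breast BrM and at 4.05, 0.0753, 0.662 and 0.293 in lung BrM. Every tumor library was below every non-tumor one. It fell by 6.27 ± 1.22 on the log2 scale in breast BrM (77.4-fold lower, adjusted p = 0.0067) and stood at -7.42 ± 1.29 in lung BrM (170.7-fold lower, adjusted p = 0.00175). Within dates, on log2(CPM + 1), Pln differed by -5.97 and -4.85 in breast BrM and by -7.32 in lung BrM. Its exons overlap those of Cep85l on the opposite strand, and libraries that keep no strand cannot tell the reads of both genes apart there.

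Ryr2 was at 18.9, 14.1, 3.74, 5.83 and 15.6 CPM in non-tumor mural libraries, at 0, 0.160, 0.126 and 0.285 in breast BrM and at 0, 0, 0 and 0.234 in lung BrM. Levels in tumor were at or under the level of a few counts, and no library overlapped the non-tumor range. The change was -6.15 ± 1.298 (adjusted p = 0.0107) in breast and -7.40 ± 1.39 (adjusted p = 0.00295) in lung BrM. Kcna5, a voltage-gated potassium channel of vascular smooth muscle, was at 66.8, 28.7, 12.2, 15.2 and 29.9 CPM in non-tumor, at 0, 1.01, 0 and 1.498 in breast BrM, and at 0.0513, 0, 0 and 0 in lung BrM. It fell by 5.51 ± 1.29 in breast BrM (45.4-fold lower, adjusted p = 0.0181). In lung BrM it was called lower (adjusted p = 0.00117) on 1 count over all 4 libraries, a ratio of 1926 with a 95% counting interval of 345.4 to 76090.

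The other calcium and channel members lay lower in breast BrM without passing the test. Cacna1h was at 57.8 to 138.6 CPM in non-tumor and at 0 to 34.5 in breast BrM (-2.56 ± 0.99, adjusted p = 0.121). Cacna1c, the L-type channel that admits calcium for contraction, was at 51.0 to 80.4 against 12.5 to 35.03 CPM (-1.38, adjusted p = 0.349). In neither gene did the groups overlap. Casq2, which stores calcium in the reticulum, was at 208.3 to 499.5 against 2.32 to 273.6 CPM. Kcnmb1, the smooth muscle subunit of the calcium-activated potassium channel, was at 97.3 to 229.5 CPM in non-tumor and at 239.9, 113.1, 137.7 and 70.0 in breast BrM (-0.30 ± 1.06, adjusted p = 0.9), with the groups overlapping.

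Tes was the only member that edgeR called higher in breast BrM mural cells. It was at 0.505, 1.23, 3.38, 2.34 and 4.05 CPM in non-tumor, at 0.664, 36.0, 41.3 and 47.3 in breast BrM and at 160.3, 361.0, 258.5 and 271.5 in lung BrM. The breast library of mouse 51950 lay within the non-tumor range and the other breast libraries above it, while all lung libraries were above every other one. It rose by 3.80 ± 0.83 in breast BrM (13.97-fold, adjusted p = 0.0123) and by 6.88 ± 0.94 in lung BrM (117.8-fold, adjusted p = 0.000322). Over 25 alternatives the call of Tes was lost under 7 in breast BrM, with values down to 0.44, and under 3 in lung BrM. The epithelial marker Krt8 stood at 0.884 to 8.59, 417.7 to 1197 and 2494 to 4033 CPM in the same 3 groups, and its part in the rise of Tes was not tested.

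**Figure D2:**
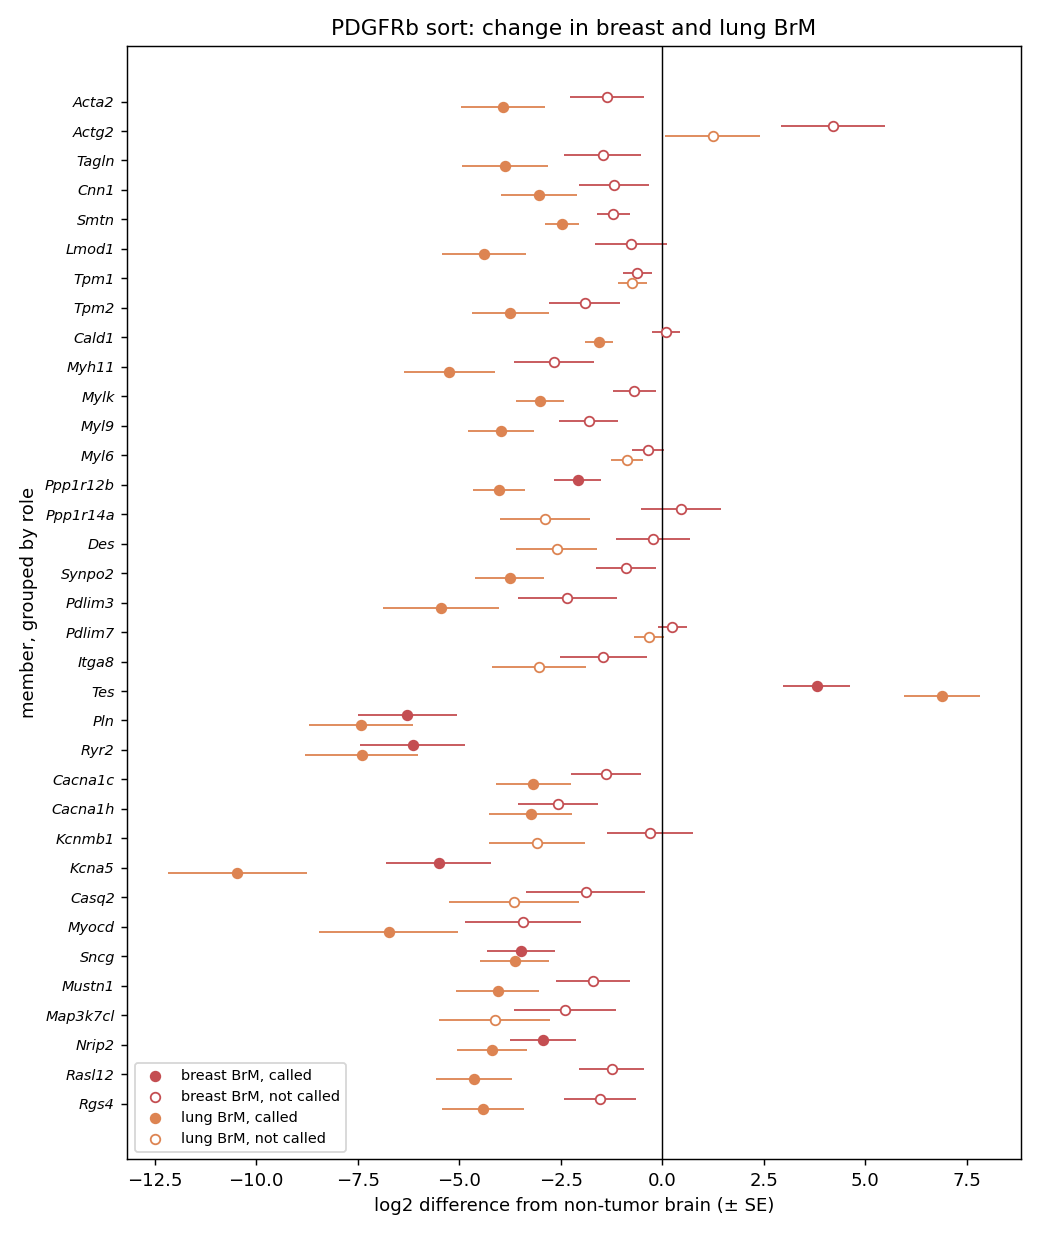
Difference from non-tumor brain in the PDGFRβ sort for each member, breast BrM and lung BrM, as log2 difference with its SE as the bar. Filled points passed the adjusted p of 0.05 (7 members in breast BrM, 25 in lung BrM). Tes is the filled point to the right of 0 in both.

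Thin filament members were still abundant in mural libraries of breast BrM. Acta2 was at 14260, 11880, 2623, 5213 and 8089 CPM in non-tumor mural libraries and at 6211, 2275, 3010 and 1402 in breast BrM. The groups overlapped, and the difference was -1.36 ± 0.92 (adjusted p = 0.398). Within the earlier and the later date Acta2 differed by -1.91 and 0.01 on log2(CPM + 1), and Tpm1 by -0.95 and 0.64. Tagln, the actin-binding transgelin, was at 5303, 5260, 883.2, 1897 and 2967 CPM against 2557, 696.5, 940.1 and 445.7 (-1.47 ± 0.94, adjusted p = 0.369). Cnn1, calponin, which slows the myosin motor, was at 179.1, 125.5, 24.0, 84.6 and 157.1 CPM against 133.8, 25.0, 22 and 17.7 (-1.19 ± 0.87, adjusted p = 0.442). Lmod1, a leiomodin that seeds actin filaments, was at 141.2, 120.1, 23.4, 44.0 and 70.8 CPM against 108.7, 21.4, 35.5 and 19.7 (-0.77 ± 0.88, adjusted p = 0.651). All these groups overlapped, and mouse 51950 was the highest breast library for each of them. Of the 9 thin filament members 0 passed edgeR's test in breast BrM (3 at an unadjusted p under 0.05), while DESeq2 called 1 higher and 1 lower.

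Actg2, the actin of visceral smooth muscle, was singled out after its values were seen, because it went the other way. It was at 21.3, 24.2, 1.67, 13.2 and 20.6 CPM in non-tumor mural libraries and at 791.1, 130.9, 212.3 and 53.4 in breast BrM. Every breast library was above every non-tumor one, yet the difference of 4.21 ± 1.28 (18.5-fold) missed the threshold (adjusted p = 0.0552). Within dates it differed by 4.25 and 6.02 on log2(CPM + 1). In lung BrM it was at 141.5, 1.66, 0.883 and 10.7 CPM, high in mouse 51435 and within the non-tumor range or below it in the other libraries (1.24 ± 1.17, adjusted p = 0.54). No window of 50 bases is shared by the transcripts of Acta2 and Actg2, of 1986 compared.

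Among the myosin members, Myh11 was at 2453, 1609, 480.9, 1118 and 1941 CPM in non-tumor and at 622.6, 99.0, 112.7 and 113.2 in breast BrM. Only mouse 51950 reached the non-tumor range, and the difference was -2.67 ± 0.99 (adjusted p = 0.107). Without that mouse it was -3.79 and passed (adjusted p = 0.0446), and with all libraries DESeq2 (-2.66, adjusted p = 0.0247) and limma-voom (-3.28, adjusted p = 0.0156) called Myh11 lower. Myl9 was at 8435, 9151, 2285, 4427 and 5500 CPM against 2751, 1269, 1818 and 815.4 (-1.81 ± 0.73, adjusted p = 0.138). Desmin, of the filament and adhesion members, was at 751.7, 655.2, 198.8, 372.3 and 472.3 CPM against 576.0, 574.2, 278.6 and 217.7, all 4 breast libraries inside the non-tumor range (-0.22 ± 0.91, adjusted p = 0.918). Within dates Des differed by -0.92 and 1.10 on log2(CPM + 1). The phosphatase subunit Ppp1r12b fell by 2.09 ± 0.58 (4.24-fold lower, adjusted p = 0.0391), from 209.5 to 731.5 CPM to 41.8 to 274.8. Mouse 51950 overlapped the non-tumor range, and the call of Ppp1r12b was lost under 13 of 25 alternatives.

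Myocd, the coactivator itself, was at 29.7, 26.4, 10.5, 23.0 and 30.6 CPM in non-tumor mural libraries, at 0, 6.12, 0 and 2.35 in breast BrM and at 0.718, 0.0753, 0 and 0.0586 in lung BrM. No tumor library reached the non-tumor range. The difference was -3.43 ± 1.43 in breast BrM, which did not pass (adjusted p = 0.153), and a fall of 6.74 ± 1.71 in lung BrM (106.6-fold lower, adjusted p = 0.0156). Sncg, a synuclein, fell by 3.48 ± 0.84 in breast BrM (11.2-fold lower, adjusted p = 0.0208), from 67.2 to 314.7 CPM to 5.15 to 28.03. Nrip2, a nuclear receptor interacting protein, fell by 2.93 ± 0.81 (7.63-fold lower, adjusted p = 0.0371), from 148.1 to 613.4 CPM to 10.6 to 122.0. For both genes the groups did not overlap. Over 25 alternatives the call was lost under 6 for Sncg and under 12 for Nrip2. Among the remaining members, Smtn stood at -1.21 ± 0.40 (adjusted p = 0.0761), Rgs4 at -1.54 ± 0.88 (adjusted p = 0.307) and Pdlim3 at -2.34 ± 1.22 (adjusted p = 0.255) in breast BrM. The phosphatase inhibitor Ppp1r14a stood at 0.46 (adjusted p = 0.83) and Cald1 at 0.09, on the other side of 0.

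**Figure D3:**
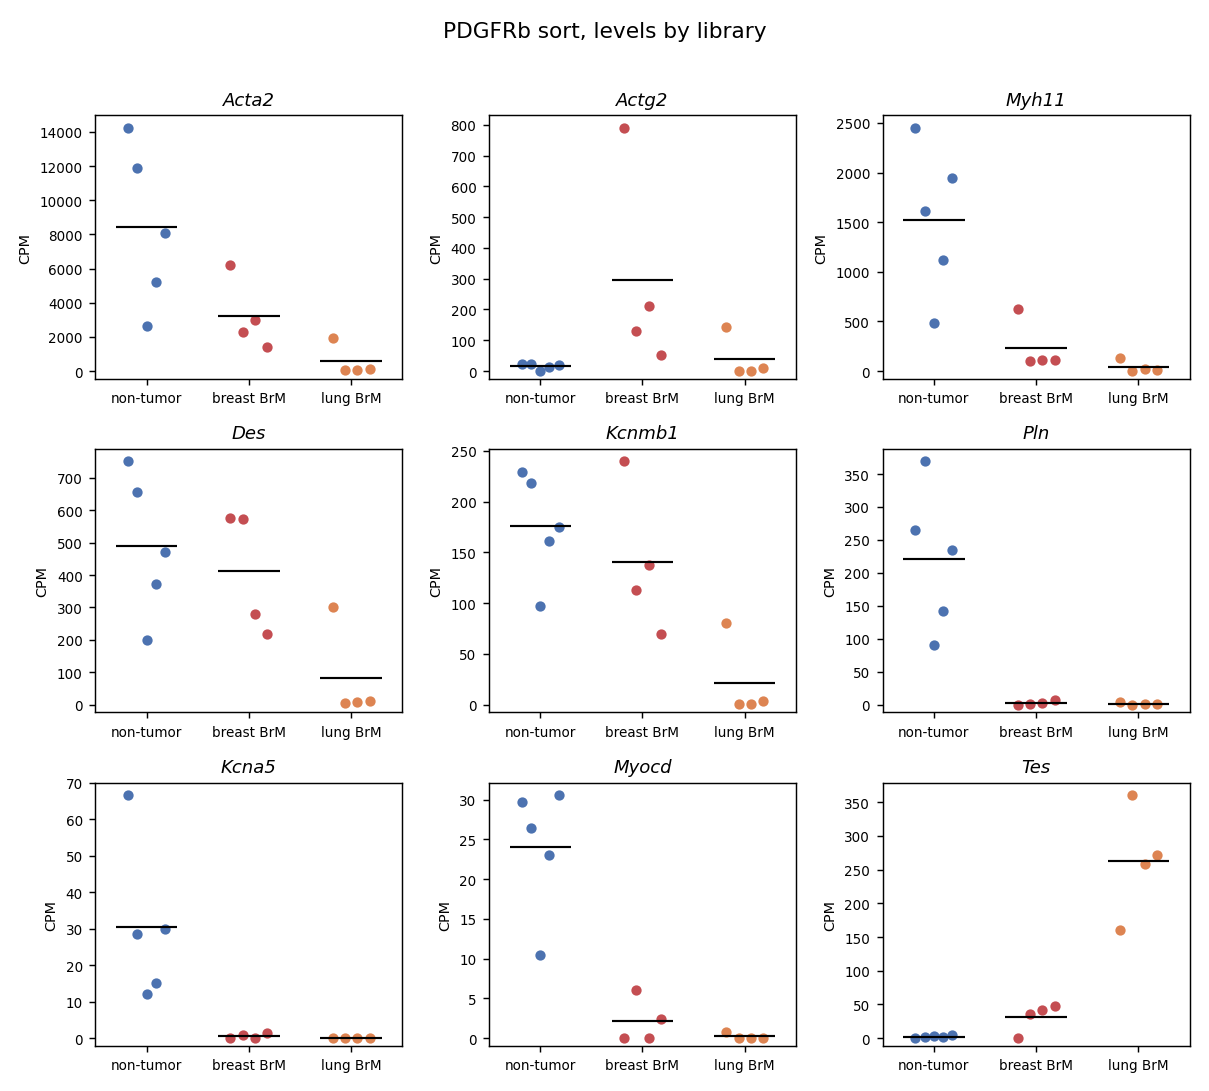
CPM in each PDGFRβ library (points) with the group mean (line) for Acta2, Actg2, Myh11, Des, Kcnmb1, Pln, Kcna5, Myocd and Tes in non-tumor brain, breast BrM and lung BrM. Acta2, Des and Kcnmb1 overlap between non-tumor and breast BrM, Pln and Kcna5 do not, and the single high lung BrM point in most panels is mouse 51435.

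In mural libraries of lung BrM every role held members that fell. Of 35 members 24 fell and 1 rose, against 17.5% of 17028 genes called (9.91% higher, 7.58% lower). The median member was at -3.74 and the median gene at -0.03, and 33 members were below 0. The thin filament gave 7 of 9 lower, myosin and its kinase 3 of 4, channels and calcium handling 5 of 7, regulators and others 6 of 7, the phosphatase 1 of 2, and the dense body, filament and adhesion group 2 lower and 1 higher of 6. In the same libraries 6 of 12 pericyte, 5 of 6 astrocyte, 3 of 10 endothelial, 2 of 8 fibroblast and 2 of 4 neuron markers fell, while 5 of 8 epithelial and 1 endothelial marker rose, and the part of these in the falls was not tested. Without the 3 libraries of low Pdgfrb, which leaves mouse 51435 alone, 0 members were called (15 at an unadjusted p under 0.05), and without mouse 51435 the count was 31. Without the libraries that name more than 1 mouse it was 7, and with mouse 54135 read by its cell type label 8. The share of all genes called was not taken in these alternative fits, so their counts are not compared with a background.

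Acta2 was at 1963, 38.0, 88.3 and 145.9 CPM in lung BrM, all below the lowest non-tumor library. It fell by 3.93 ± 1.03 (15.2-fold lower, adjusted p = 0.0185). The call was lost without lung pool 55169-70 (adjusted p = 0.053) or 56195-56520 (adjusted p = 0.0594), without mouse 51435 the value was -6.56, and over 25 alternatives the adjusted p of Acta2 ran from 7.81e-05 to 0.435. Myh11 was at 131.9, 1.58, 15.9 and 11.7 CPM and fell by 5.25 ± 1.12 (37.9-fold lower, adjusted p = 0.00652), again with no overlap. Tagln was at 777.2, 13.8, 48.7 and 55.5 CPM and fell by 3.88 ± 1.06 (14.7-fold lower, adjusted p = 0.0217). In each of these genes mouse 51435 was the highest of the 4 lung libraries.

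Des was at 300.6, 5.57, 9.49 and 12.2 CPM, with mouse 51435 inside the non-tumor range, and its difference of -2.60 ± 0.99 did not pass (adjusted p = 0.0881). Without mouse 51435 it was -5.78 (adjusted p = 2.57e-05). Myl9 was at 1217, 84.8, 124.6 and 107.2 CPM and fell by 3.97 ± 0.81 (15.6-fold lower, adjusted p = 0.00492). Cnn1 was at 42.6, 2.41, 5.46 and 5.27 CPM and fell by 3.03 ± 0.94 (8.18-fold lower, adjusted p = 0.0391), and here mouse 51435 overlapped the non-tumor range. The call of Cnn1 was lost under 12 of 25 alternatives, and its direction reversed under 1 more. Lmod1 was at 11.7, 0.527, 2.37 and 0.527 CPM and fell by 4.39 ± 1.03 (21.0-fold lower, adjusted p = 0.0106) without overlap. Among 35 members mouse 51435 was the highest lung library in 33, Ryr2 and Tes being the exceptions.

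Not all contractile components were called lower in lung BrM. Myl6 was at 1180, 1033, 941.6 and 521.0 CPM, against 672.2 to 2702 in non-tumor (-0.87 ± 0.40, adjusted p = 0.159). Tpm1, a tropomyosin, was at 1208, 792.5, 554.4 and 672.3 CPM against 500.1 to 1970 (-0.74 ± 0.35, adjusted p = 0.178). Pdlim7, a LIM protein of actin fibres, was at 144.2, 80.6, 77.9 and 66.6 CPM against 79.4 to 169.7 (-0.33, adjusted p = 0.608). All 3 overlapped the non-tumor range, each in at least 1 library with low Pdgfrb. Myl6 at 521.0 and Pdlim7 at 77.9 and 66.6 CPM lay below that range. Within the date shared with non-tumor brain Myl6 differed by -0.76 and Tpm1 by -0.79 on log2(CPM + 1), without overlap. Pdlim7 differed by -0.46 there, with overlap. Per CPM of Pdgfrb, Myl6 was at 12.36 or more in each lung library with low Pdgfrb, against at most 3.153 in non-tumor brain. In the same libraries Tpm1 was at 15.41 or more against at most 2.298, and Pdlim7 at 1.581 or more against at most 0.1542. In mouse 51435 Myl6 (2.534) lay in the non-tumor range, and Tpm1 (2.594) and Pdlim7 (0.3097) above it. That scale moves the median gene by 4.39. The part of RNA from other cells in these levels was not tested. Cald1, caldesmon, which ties actin to myosin, was at 795.9, 356.6, 281.6 and 240.4 CPM against 768.6 to 1436 and fell by 1.56 ± 0.35 (2.95-fold lower, adjusted p = 0.00869).

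Other structural members were lower in lung BrM. Synpo2 was at 18.2, 2.64, 1.88 and 4.57 CPM and fell by 3.76 ± 0.84 (13.5-fold lower, adjusted p = 0.00845). Pdlim3 was at 0.226 to 18.8 CPM against 82.0 to 346.3 in non-tumor and fell by 5.45 ± 1.42 (43.6-fold lower, adjusted p = 0.018). Itga8 was at 1.88 to 19.8 against 33.2 to 67.8 CPM, a difference of -3.04 that missed the threshold (adjusted p = 0.0851) although the groups did not overlap. Smtn was at 46.7 to 129.4 against 255.1 to 739.9 CPM and fell by 2.46 ± 0.43 (adjusted p = 0.0017). Tpm2, the other tropomyosin of the list, was at 6.70 to 231.8 against 240.8 to 1413 CPM and fell by 3.74 ± 0.95. Ppp1r12b, at 14.7 to 34.2 CPM, fell by 4.02 ± 0.64 (16.2-fold lower, adjusted p = 0.00097). Ppp1r14a, at 0.753 to 37.8 against 30.1 to 134.0 CPM, overlapped the non-tumor range and did not pass (-2.89, adjusted p = 0.0876).

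The calcium channels fell as well in lung BrM, Cacna1c to 0.351 to 24.2 CPM (-3.18 ± 0.93, adjusted p = 0.03) and Cacna1h to 2.71 to 21.7 CPM (-3.24 ± 1.02, adjusted p = 0.0419). Over 25 alternatives the call was lost under 12 for Cacna1c and under 14 for Cacna1h, whose direction reversed under 1 more. Casq2 at 0.226 to 127.9 CPM (-3.65 ± 1.59, adjusted p = 0.137) and Kcnmb1 at 0.221 to 80.2 CPM (-3.08 ± 1.18, adjusted p = 0.0891) missed the threshold, each without overlap with non-tumor brain. Rgs4 was at 531.8, 22.7, 10.2 and 32.7 CPM against 1800 to 4160 and fell by 4.41 ± 1.01 (21.2-fold lower, adjusted p = 0.00956). Among the regulators and others, Rasl12 fell by 4.64 ± 0.93 (adjusted p = 0.0045), Nrip2 by 4.18 ± 0.86 (adjusted p = 0.00508), Mustn1 by 4.05 ± 1.02 (adjusted p = 0.0152) and Sncg by 3.63 ± 0.85 (adjusted p = 0.0102). Map3k7cl, at 0 to 4.15 against 5.31 to 47.3 CPM, stood at -4.13 ± 1.37 (adjusted p = 0.0513). All these falls are per total count, and set against Pdgfrb some of them turn, as given with the ratios.

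**Figure D4:**
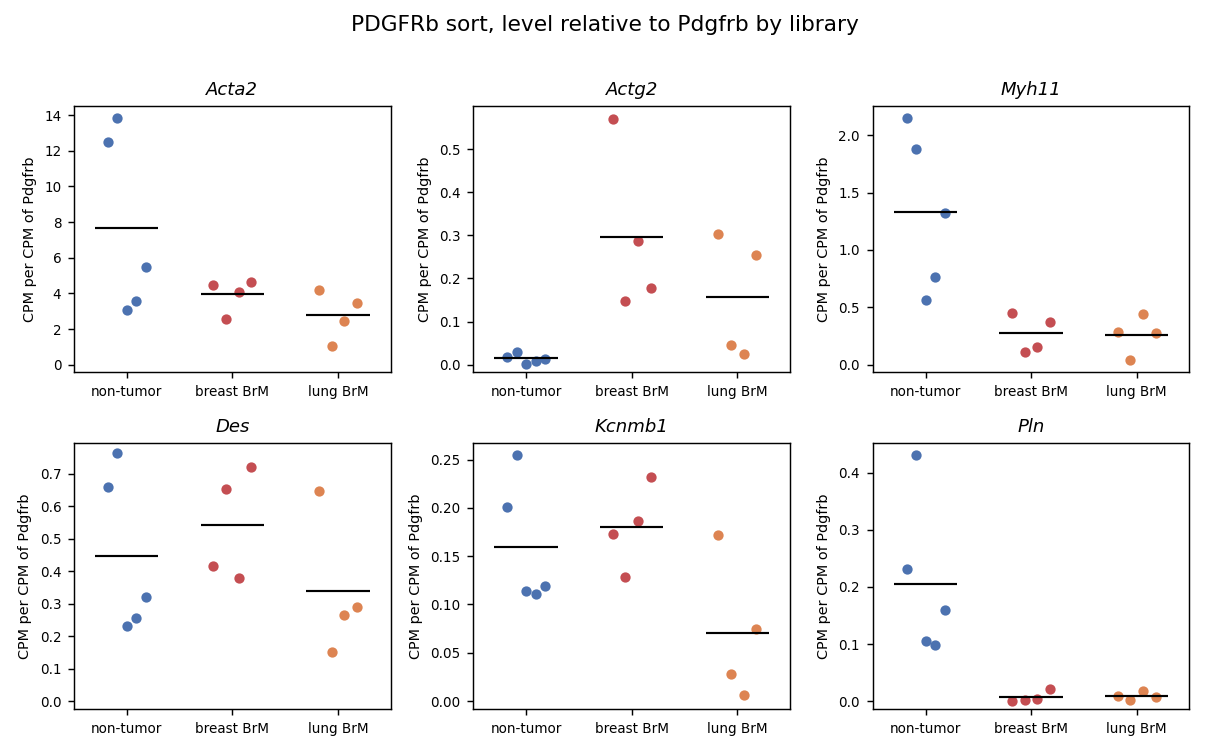
CPM of Acta2, Actg2, Myh11, Des, Kcnmb1 and Pln divided by the CPM of Pdgfrb in the same PDGFRβ library, by state, with 1 point a library and the group mean as a line. Ratios of Acta2 and Des overlap across the 3 states, those of Pln are below the non-tumor range in both tumor states, and those of Actg2 are above it in breast BrM.

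Because Pdgfrb itself differed between the groups, members were also set against it, a scaling chosen after seeing the data that moves the median gene by 0.89 in breast and by 4.39 in lung BrM. Per CPM of Pdgfrb, Acta2 was at 3.07 to 13.9 in non-tumor, 2.59 to 4.64 in breast BrM and 1.03 to 4.22 in lung BrM, with overlap. Des was at 0.232 to 0.764, 0.378 to 0.720 and 0.151 to 0.646, and Kcnmb1 at 0.110 to 0.255, 0.129 to 0.232 and 0.00614 to 0.172. For these genes the ratio in tumor overlapped that of non-tumor brain. Pln stood at 0.0975 to 0.431 in non-tumor against 0 to 0.0215 and 0.00204 to 0.0184, so its ratio was lower in every tumor library. Myh11 stood at 0.562 to 2.15 against 0.113 to 0.449 and 0.0429 to 0.442, without overlap as well. Actg2 stood at 0.00195 to 0.0283 against 0.149 to 0.571 in breast BrM, where no library overlapped, and 0.0245 to 0.304 in lung BrM, where the lowest did. On this scale Pln was called lower in breast BrM at -4.94 (adjusted p = 0.0371) and in lung BrM (-4.50, adjusted p = 0.00476), Actg2 was called higher in both (4.36, adjusted p = 0.0171; 3.45, adjusted p = 0.0042), and Acta2 stood at -0.96 (adjusted p = 0.467) and -1.46 (adjusted p = 0.0488). In all, 2 members were called higher and 1 lower in breast BrM, and 7 higher and 8 lower in lung BrM. The share of all genes called on this scale was not taken, so nothing is read from these counts. The median gene stood at 0.73 in breast and 4.36 in lung BrM, and the median member at -0.96 and -0.86. Set against Pdgfrb, Smtn (1.75, adjusted p = 0.0361) and Cald1 (2.48, adjusted p = 0.00154) were called higher in lung BrM, the opposite of their direction per total count. Both, and Actg2 at 3.45, lay below the median gene of that scale. Mylk (0.62, adjusted p = 0.396), Cnn1 (0.13, adjusted p = 0.904), Cacna1h (0.78, adjusted p = 0.524) and Ppp1r12b (0.32, adjusted p = 0.729) also changed sign and did not pass.

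Lung and breast BrM mural libraries differed in 3 members, all lower in lung per total count (set against Pdgfrb, Cald1 was called higher at 1.75, adjusted p = 0.0279, and Mylk stood at 0.84, adjusted p = 0.286), against 5.47% of genes called (3.08% higher, 2.39% lower). The median member stood at -1.93 and the median gene at 0.07, and set against Pdgfrb at 0.31 and 3.59. Mylk was at 286.7, 71.2, 49.7 and 50.5 CPM in lung and at 1037, 515.3, 410.4 and 293.8 in breast BrM (-2.31 ± 0.59, 4.97-fold lower, adjusted p = 0.0345). Non-tumor libraries held 1385, 1159, 373.7, 735.5 and 971.3 CPM of it. Cald1 was at 2120, 1243, 893.3 and 975.1 CPM in breast BrM, above all lung libraries (-1.65 ± 0.37, 3.13-fold lower, adjusted p = 0.02). Its non-tumor libraries held 1393, 1358, 768.6, 1436 and 1319 CPM. Rasl12, a Ras-like GTPase, was at 82.4, 6.17, 3.37 and 4.51 CPM in lung and at 445.0, 236.7, 213.6 and 93.7 in breast BrM (-3.39 ± 0.89, 10.5-fold lower, adjusted p = 0.0411). Non-tumor libraries held 830.9, 706.1, 338.3, 533.3 and 575.1 CPM of Rasl12. The count ranged from 0, without lung mouse 54957, 55169-70 or 56195-56520 (14, 13 and 13 members at an unadjusted p under 0.05), to 22 without mouse 51435, of which 1 was higher. In these fits too the share of all genes called was not taken. The next count is again that of all libraries. Of the 35 members 0 were called higher (1 at an unadjusted p under 0.05).

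In the CD31 sort Acta2, Tagln, Myl9 and Myh11 were at low levels. For the endothelial sort values follow mice 53680, 54132, 54135, 56727 and 56740, then 51950, 52599, 52865, 53072 and 53142, then 51435, 51697, 54957, 55169-70 and 56195-56520. Acta2 was at 11.5, 17.8, 3.01, 13.5 and 45.5 CPM in non-tumor, at 4.85, 4.18, 2.46, 2.22 and 4.58 in breast BrM and at 2.87, 19.3, 6.08, 1.301 and 0.0621 in lung BrM, with overlap (-2.28 ± 0.92 in breast BrM, adjusted p = 0.0712). Tagln was at 4.95, 8.89, 3.18, 6.94 and 18.8, at 1.51, 2.65, 1.77, 1.34 and 1.83 and at 1.46, 0.942, 1.29, 1.75 and 25.9 CPM, the last library being the highest of all. Myl9 was at 10.1, 16.6, 4.48, 15.97 and 25.4, at 4.61, 4.74, 5.67, 2.74 and 10.4 and at 9.88, 9.65, 9.09, 5.32 and 0 CPM. These levels are small shares of those in the PDGFRβ sort.

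Myh11 was at 2.37, 5.10, 0.227, 1.05 and 6.85 CPM in non-tumor endothelial libraries at 0.141, 0.0803, 0, 0.117 and 0 in breast BrM and at 0, 0, 0.143, 0 and 0 in lung BrM. Cnn1 was at 0.377, 0.311, 0, 0.933 and 1.02 CPM in non-tumor, at 0.0942 in breast mouse 51950 and at 0 in the other 9 tumor libraries. Both were too low to be tested, as were 9 further members, among them Lmod1, Myocd, Ryr2 and Kcnmb1. Des was at 1.45, 1.18, 0.227, 1.05 and 2.45, at 0.188, 0.803, 0, 0.583 and 0 and at 0.183, 0.706, 0.930, 0.509 and 0 CPM. Lmod1 was at 0, 0.560, 0.340, 0.233 and 0.409 in non-tumor, at 3.06, 0, 2.00, 2.68 and 2.44 in breast BrM and at 0 in all 5 lung libraries, where 3 counts would be 0.166 to 0.233 CPM before scaling between libraries. Myocd was at 0.0538, 0, 0.0567, 0 and 0.102, at 0, 2.09, 0, 0.350 and 0 and at 0, 0, 0.143, 0 and 2.17 CPM.

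Of the 24 members tested in the CD31 sort, 6 rose and 2 fell in breast BrM, against 30.1% of 14876 genes called (18.6% higher, 11.4% lower). In lung BrM 5 rose and 1 fell, against 34.8% (20.4% higher, 14.5% lower). These shares of members are near or below the background, so nothing is read from the counts. The 8 epithelial markers together were at 0.175 to 8.46 CPM in non-tumor, 151.9 to 2964 in breast and 96.4 to 2242 in lung BrM libraries of this sort, and their part in the changes was not tested.

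Synpo2, myopodin, an actin-bundling protein of Z-discs and dense bodies, was at 92.3, 207.4, 126.8, 181.4 and 172.8 CPM in non-tumor endothelial libraries, at 11.9, 15.9, 9.04, 8.81 and 8.49 in breast BrM and at 13.5, 5.26, 22.04, 22.3 and 4.90 in lung BrM. Every tumor library was below every non-tumor one. It fell by 3.82 ± 0.41 in breast (14.1-fold lower, adjusted p = 3.74e-06) and by 3.47 ± 0.41 in lung BrM (11.1-fold lower, adjusted p = 7.98e-06), and within dates differed by -3.04, -3.40 and -3.62 on log2(CPM + 1). In mural cells of breast BrM it was at 103.4, 65.3, 14.1 and 15.2 CPM against 39.6 to 149.0, with overlap. Rgs4 fell in CD31 libraries of breast BrM by 3.75 ± 1.25 (adjusted p = 0.0315), from 3.23, 5.72, 1.42, 6.99 and 9.76 CPM to 0.424, 0.803, 0, 0.525 and 0.203. The call was lost under 8 of 24 alternatives. Non-tumor libraries of the PDGFRβ sort held 1800 to 4160 CPM of Rgs4, and the part of mural RNA in its CD31 levels was not tested.

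Tes, Pdlim7, Cald1 and Kcna5 were called higher in endothelial cells of both tumor types. Tes was at 90.7, 91.2, 104.8, 84.2 and 92.1 CPM in non-tumor, at 202.9, 338.4, 174.6, 140.5 and 251.8 in breast BrM and at 265.6, 233.7, 298.3, 277.3 and 166.8 in lung BrM. All tumor libraries were above the non-tumor ones, with rises of 1.28 ± 0.20 (adjusted p = 0.000145) and 1.48 ± 0.20 (adjusted p = 3.79e-05). Pdlim7 was at 61.6, 39.9, 68.2, 43.8 and 44.3 CPM, at 118.2, 216.4, 155.8, 97.99 and 185.7 and at 158.8, 221.2, 129.2, 154.2 and 175.7, rising by 1.61 ± 0.23 (adjusted p = 5.5e-05) and 1.77 ± 0.23 (adjusted p = 2.22e-05), again without overlap.

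Cald1 was at 59.5, 51.0, 44.5, 51.9 and 60.5 CPM in non-tumor endothelial libraries, at 230.5, 246.4, 337.1, 349.7 and 349.8 in breast BrM and at 120.6, 231.6, 61.0, 110.5 and 53.0 in lung BrM. All breast libraries were above both other groups except lung mouse 51697, which exceeded the lowest of them, and 1 lung library lay in the non-tumor range. It rose by 2.54 ± 0.33 in breast BrM (5.799-fold, adjusted p = 2.29e-05) and by 1.18 ± 0.31 in lung BrM (2.26-fold, adjusted p = 0.00827), and was lower in lung than in breast BrM by -1.36 ± 0.31 (adjusted p = 0.0299). The within-date difference in lung BrM was 0.02, against 2.27 and 2.78 in breast BrM. Kcna5 was at 17.8, 1.68, 6.81, 6.53 and 7.001 CPM, at 18.9, 39.9, 11.5, 13.7 and 17.4 and at 34.8, 29.0, 14.7, 26.3 and 26.6, with overlap through mouse 53680. Its rises were 1.37 ± 0.49 (adjusted p = 0.042) and 1.79 ± 0.49 (adjusted p = 0.00984), while in mural cells it fell. Over 24 alternatives the call of Kcna5 was lost under 11 in breast and under 2 in lung BrM. Within dates it differed by -0.12 and 1.62 in breast BrM and by 1.48 in lung BrM, on log2(CPM + 1). Myl6 in lung BrM endothelium stood at 0.70 ± 0.26 (adjusted p = 0.0484), a call lost under 15 of 24 alternatives.

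Pdlim3 and Itga8 were high in some breast BrM endothelial libraries. Pdlim3, an actinin-binding LIM protein, was at 0.753, 1.06, 0.738, 0.408 and 1.38 CPM in non-tumor, at 14.3, 1.04, 7.61, 28.9 and 5.59 in breast BrM and at 0.0610, 0, 0.644, 0 and 0.0621 in lung BrM. It rose by 3.78 ± 0.98 in breast BrM (adjusted p = 0.00781) and was lower in lung than in breast BrM by -6.21 ± 1.14 (adjusted p = 0.00695). Itga8, an integrin chain of smooth muscle and fibroblasts, was at 0, 0.0622, 0, 0.0583 and 1.99 CPM, at 12.4, 0.0803, 1.43, 28.8 and 1.93 and at 0, 0, 0.0716, 0 and 0. It rose by 4.44 ± 1.5 in breast BrM (adjusted p = 0.0336). In lung BrM it rested on 1 count, a ratio to breast BrM of 717.7 with a 95% counting interval of 128.4 to 28380 (adjusted p = 0.0276). Both genes were highest in mice 51950 and 53072. These CD31 libraries also held the most of the epithelial marker Krt8, 331.9 and 856.7 CPM against 34.6 to 73.7 in the other breast libraries. The part of carcinoma RNA in both genes was not tested. Over 24 alternatives the call in breast BrM was lost under 9 for Itga8 and under 1 for Pdlim3, whose direction reversed under 1 more. Between the tumor types the call was lost under 10 for Itga8 and under 2 for Pdlim3. Between the tumor types 3 of 24 members were called, all lower in lung, against 2.13% of genes called (0.578% higher, 1.55% lower). With date as a covariate 0 were called (4 at an unadjusted p under 0.05).

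**Figure D5:**
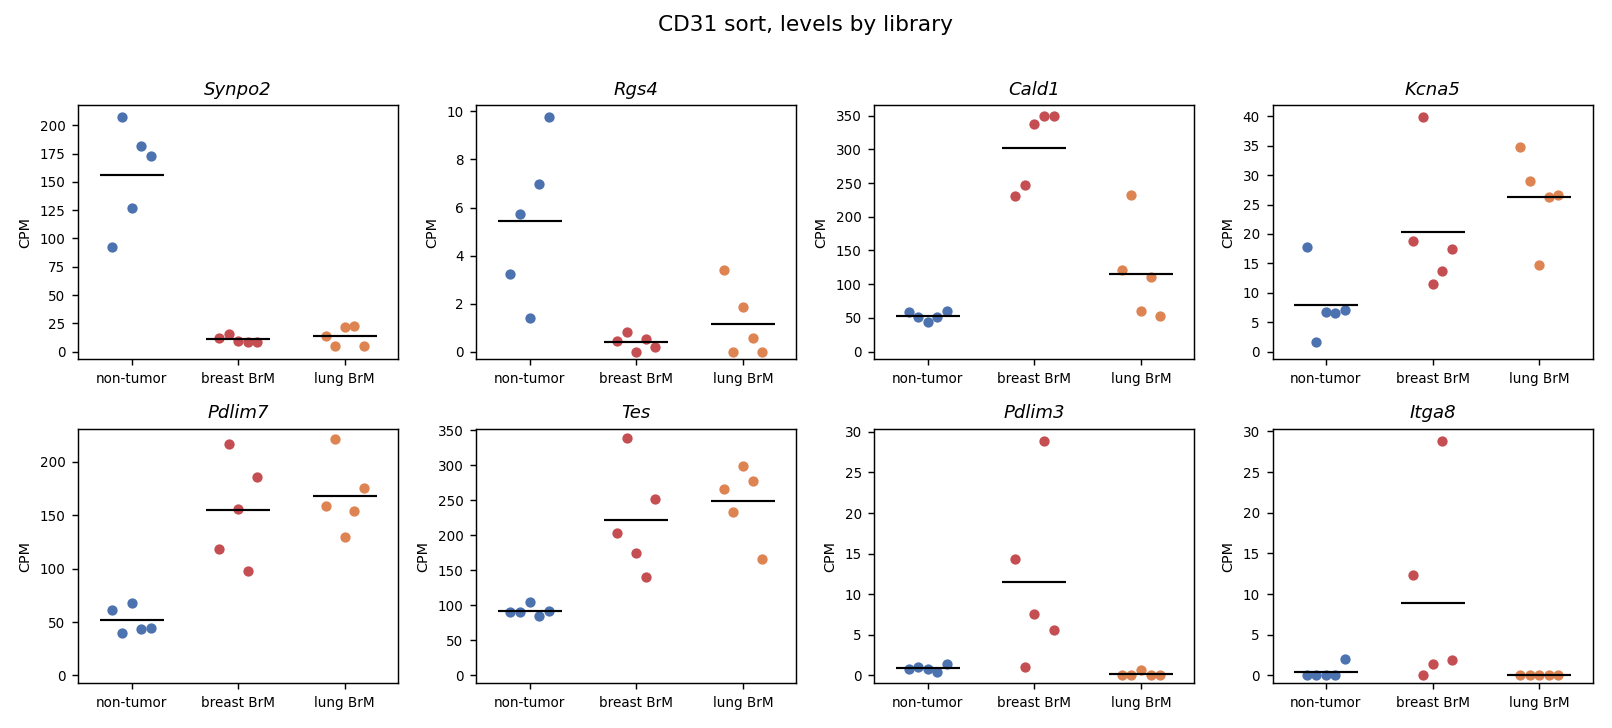
CPM in each CD31 library (points) with the group mean (line) for Synpo2, Rgs4, Cald1, Kcna5, Pdlim7, Tes, Pdlim3 and Itga8 by state. Synpo2 is lower in every tumor library than in non-tumor brain, Pdlim7 and Tes are higher in every tumor library, and Pdlim3 and Itga8 are high in part of the breast BrM libraries.

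Tumor changes differed between the sorts for 8 members in breast BrM (2 higher, 6 lower in mural cells), against 5.93% of genes called (2.35% higher, 3.57% lower), and for 15 in lung BrM (1 higher, 14 lower), against 10.1% (3.77% higher, 6.35% lower). With each mouse as a block, pairing the 2 sorts, 2 members were called in breast BrM, Kcna5 and Cald1, and 10 in lung BrM. The change of Kcna5 was lower in mural than in endothelial cells by -6.89 ± 1.19 in breast BrM (adjusted p = 0.000522). That of Cald1 was lower by -2.44 ± 0.50 (adjusted p = 0.00282) and that of Synpo2 higher by 2.93 ± 0.84 (adjusted p = 0.0354; 0.239 with the mouse as a block). In lung BrM the change of Tes was higher in mural cells by 5.39. In tumor the members still differed between the sorts: 25 were higher and 3 lower in mural cells of breast BrM, against 16.5% of genes called (9% higher, 7.51% lower), and 24 higher and 2 lower in lung BrM, against 19.6% (10.2% higher, 9.36% lower). Smtn, smoothelin, did not pass between the sorts of non-tumor brain (0.50, adjusted p = 0.276), and was lower in mural cells of breast BrM by -1.26 ± 0.34 (adjusted p = 0.011) and of lung BrM by -2.47 ± 0.36.

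Other genes of the pathway were read from 3 lists. Beside their counts stand the shares of all genes called: 6.3% higher and 2.69% lower in mural cells of breast BrM, 9.91% and 7.58% in those of lung BrM, 18.6% and 11.4% in endothelial cells of breast BrM, and 20.4% and 14.5% in those of lung BrM. Of 27 further genes of contraction signalling (receptors, kinases, channels and pumps), 5 fell in mural cells of breast BrM and 16 in lung BrM, with medians of -0.83 and -2.62. In breast BrM these included Kcnma1, the pore of the channel that Kcnmb1 modulates (-4.60 ± 1.25, adjusted p = 0.0348), and Cacnb2, an auxiliary calcium channel subunit (-4.31 ± 0.87, adjusted p = 0.00837). In lung BrM the sodium-calcium exchanger Slc8a1 fell by 5.90 ± 1.23 (adjusted p = 0.0055). In endothelial cells 5 of 20 rose and 4 fell in breast BrM, among them the endothelin receptor Ednrb, which rose by 4.03 ± 0.49 (adjusted p = 1.35e-05), and Rgs5, which fell by 2.88 ± 0.97 (adjusted p = 0.0324).

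Of 16 genes of the SRF and MRTF axis, 0 passed edgeR's test in mural cells of breast BrM (5 at an unadjusted p under 0.05), where DESeq2 called 1 higher and 1 lower and limma-voom 1 higher. In lung BrM 4 fell, among them Filip1l (-2.96 ± 0.59, adjusted p = 0.00438) and the LIM protein Csrp1 (-2.27 ± 0.55, adjusted p = 0.0122). Srf itself stood at 0.40 ± 0.84 (adjusted p = 0.826) and -0.29 ± 0.85 (adjusted p = 0.872). In endothelial cells 6 of 15 rose and 3 fell in breast BrM (18.6% and 11.4% of all genes) and 6 rose and 2 fell in lung BrM (20.4% and 14.5%), with filamin, Flna, up by 1.63 ± 0.22 (adjusted p = 3.14e-05) and 1.60 ± 0.22 (adjusted p = 3.6e-05) and Klf4 at -1.17 ± 0.33 (adjusted p = 0.0125) and -1.20 ± 0.33 (adjusted p = 0.0096). Of 27 relatives of the members, mostly non-muscle or other paralogs, 24 were tested in mural cells, and 5 rose and 1 fell in breast BrM, 6 rose and 3 fell in lung BrM. The tropomyosin Tpm3 rose by 1.41 ± 0.19 (adjusted p = 0.000735) and by 2.95 ± 0.20 (adjusted p = 1.01e-06), and Tpm4 by 2.09 ± 0.34 in breast BrM (adjusted p = 0.00249), while Tpm2 of the contractile list fell in lung BrM by 3.74 ± 0.95 (adjusted p = 0.0156). The phosphatase subunit Ppp1r12a fell in both, by 1.75 ± 0.37 (adjusted p = 0.0101) and 2.53 ± 0.38 (adjusted p = 0.000614). In endothelial cells 11 of 21 relatives rose in each tumor type (18.6% and 20.4% of all genes), led by Pdlim1 at 6.69 ± 0.31 (adjusted p = 7e-10) and 7.37 ± 0.32 (adjusted p = 5.92e-10).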

How the data were processed

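RNA of sorted cells was sequenced after SMART-Seq HT Ultra Low Input amplification and Nextera XT tagging, per the labels' protocols, with neither strand nor molecular identifiers kept. Per the submitters' processing notes the mm10 genome was used with the aligner STAR (2.7.9a) and the counter RSEM (1.3.3), besides limma 3.50.3 and edgeR 3.36.0. The deposited tables hold expected counts per gene (53647 IDs, 52093 with a symbol), and, per sort, the authors' FPKM and the authors' log2 expression values (18665 genes). Rows without a symbol held 0.182 to 1.57% of counts and stayed out of member lists.

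Expected counts were rounded and fitted with edgeR 4.0.16 (R 4.3.3), with filterByExpr, TMM scaling and robust quasi-likelihood tests. Each sort had its own fit of 3 groups (17028 genes in PDGFRβ, 14876 in CD31), and comparisons between sorts used all 28 libraries (18548 genes). Calls need a p under 0.05 after Benjamini-Hochberg adjustment over all genes tested. The SE is the log2 difference divided by the square root of F. CPM are counts over TMM-scaled totals. FPKM were used only to compare genes within a sort. The fit was tested on simulated data. Alternatives were DESeq2 1.42.0, limma 3.58.1 (voom, log2 values, log2 of FPKM plus 1 or 0.1), other scalings and filters, date, mouse block and leaving out libraries.

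Every library's values are given for Acta2, Myh11, Tagln, Cnn1, Myl9, Des, Lmod1, Myocd and for up to 3 called members with the largest rise and fall per comparison within a sort. Genes outside the members come from 3 lists, with at most 2 per list and direction. The members and lists were chosen with earlier results of these data known. In 13 mice or pools both sorts were sequenced, which pairs their libraries, since same-numbered samples come from 1 animal or pool. Correlations of the paired deviations from group means ran from -0.116 to 0.333 (median 0.0056). P-values within a sort measure the spread between mice or pools. Fits that compare the sorts, or their tumor changes, had no mouse block as reported and counted paired libraries as independent. Their p-values therefore do not measure that spread, and the counts with the mouse as a block are given beside them or below. Promoter windows and gene starts came from RefSeq on GRCm38.p6, and 12 members have exons that overlap another gene's, so their counts could hold reads of both.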

Additional observations from a re-analysis of the deposited data

Results flagged for a closer look

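A set of 21 members, those named by the rule for library values and Actg2, was examined in each group of 4 or 5 libraries in which at least 1 library reached 1 CPM. Of these 105 combinations of member and group 26 held a library far from the others by Dixon's criterion. No rate of chance is set beside this count, because a group could enter through its outlying library alone. Members that share 1 unusual library also do not count separately. Mouse 51435 stood far above the other lung BrM libraries of the PDGFRβ sort in 15 of the 26. Its CPM were 1963 for Acta2, 131.9 for Myh11, 777.2 for Tagln, 42.6 for Cnn1, 1217 for Myl9 and 300.6 for Des. For Lmod1 it held 11.7 CPM, for Pln 4.05, for Rasl12 82.4, for Mylk 286.7 and for Itga8 19.8. Pdlim3 was at 18.8, Synpo2 at 18.2, Rgs4 at 531.8 and Actg2 at 141.5 CPM in it. The Pdgfrb level of the same library was 465.7 CPM against at most 42.2 in the other 3, and the part of that difference in these values was not tested.

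In breast BrM of the PDGFRβ sort, mouse 51950 was far above the others for Myh11 (622.6 CPM) and Cnn1 (133.8 CPM). In non-tumor brain mouse 54135, whose labels disagree on the sort, was far below the others for Cald1 (768.6 CPM, the nearest at 1319). In the CD31 sort the lung pool 56195-56520 stood out for Tagln (25.9 CPM) and Myocd (2.17 CPM), lung mouse 51697 for Ryr2 (2.36 CPM), and non-tumor mouse 56740 for Itga8 (1.99 CPM). In CD31 breast BrM, mouse 52599 stood out for Myocd (2.09 CPM) and Kcna5 (39.9 CPM), mouse 52865 for Ryr2 (1.43 CPM) and mouse 53142 for Rasl12 (1.12 CPM).

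Changes that differed between the sorts by edgeR's interaction test were, in breast BrM (PDGFRβ minus CD31, log2), Smtn -1.76, Synpo2 2.93, Pln -4.77, Ryr2 -6.61, Kcna5 -6.89, Cald1 -2.44, Pdlim3 -6.10 and Tes 2.5. With the mouse as a block Kcna5 and Cald1 kept their calls and the other 6 lost theirs, and over 31 alternatives the call was lost in 26 for Tes (reversed in 1), 21 for Pln, 16 for Synpo2 and 11 for Ryr2. In lung BrM they were Smtn -2.97, Mylk -3.22, Myl6 -1.54, Pln -7.59, Ryr2 -8.74, Cacna1h -6.30, Kcna5 -12.19, Myocd -9.95, Tpm2 -4.50, Cald1 -2.69, Pdlim7 -2.07, Ppp1r12b -2.66, Tes 5.39, Mustn1 -5.17 and Nrip2 -4.61. There the block ended the calls of Myl6, Ryr2, Cacna1h, Myocd and Ppp1r12b, and over 31 alternatives Ppp1r12b lost its call in 23 and Myl6 in 18. Kcna5 in lung BrM mural cells and several of these genes in 1 sort rest on few counts, so the fitted sizes are not bounds.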

How the results depend on the processing

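Numbers are members called, and the share of all genes called was taken only for the fits as reported. The cell type label of 54135 goes against the Pdgfrb and Pecam1 levels of its libraries. With 54135 read by its cell type label, PDGFRβ breast gave 3 (7 as reported), PDGFRβ lung 8 (25), PDGFRβ lung against breast 0 (3; 9 at an unadjusted p under 0.05), CD31 lung 16 (6), CD31 lung against breast 0 (3; 3 unadjusted), the sorts in non-tumor 0 (31; 25 unadjusted) and in lung 17 (26), and the effects differing between sorts 2 in breast (8) and 3 in lung (15). Date as a covariate gave 0 in PDGFRβ breast, 5 in CD31 breast (8), 0 in CD31 lung against breast and 5 in the breast effect. Without the libraries naming more than 1 mouse the counts were 7 in PDGFRβ lung, 0 in PDGFRβ lung against breast (7 unadjusted), 15 in CD31 breast, 1 in CD31 lung against breast and 9 in the lung effect. Without the 3 lung libraries of low Pdgfrb, an alternative added after seeing the data, they were 0 in PDGFRβ lung (15 unadjusted), 0 against breast (1 unadjusted) and 2 in the lung effect, with the lone sample assumed to vary like the other groups. Scaling to Pdgfrb, also added, gave 3, 15 and 7 in the PDGFRβ comparisons. DESeq2 called 12 in PDGFRβ breast and 14 in lung against breast. For the latter upper-quartile scaling gave 6, 1 fit of all libraries 9, limma on deposited log2 values 12, and on log2 FPKM 11 (plus 1) and 10 (plus 0.1). CD31 lung gave 10 and 11 by those FPKM fits, CD31 lung against breast 5 in 1 fit, and limma-voom 15 between sorts in lung. Without mouse 54135 the breast effect gave 5. The replicate block by mouse gave 2 in the breast effect, 10 in the lung effect, and 31, 25 and 21 between the sorts.

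Leaving out 1 library gave 4 to 10 in PDGFRβ breast, 17 to 31 in PDGFRβ lung, 0 to 22 in lung against breast, 5 to 9 in CD31 breast, 6 to 11 in CD31 lung, 1 to 4 in CD31 lung against breast, 31 to 33, 26 to 28 and 24 to 27 between sorts in non-tumor, breast and lung, 4 to 9 in the breast effect and 12 to 26 in the lung effect. The libraries that moved a CD31 count most were non-tumor 54132 or 56727 (5 in breast), lung 56195-56520 (11 in lung) and breast 53072 (1 in lung against breast). Of 4084 values of single genes under alternatives, 3513 kept direction and call, 524 (12.8%) lost the call, 27 gained it and 20 reversed. Reversed were Actg2 in PDGFRβ lung (-0.66 by limma-voom, -1.36 with date, -0.79 on log2 values, -0.59 and -0.80 on log2 FPKM, -1.89 without 51435 and up to 1.64 without another lung library), Des in PDGFRβ breast scaled to Pdgfrb (0.28), and, so scaled in PDGFRβ lung, Cnn1 0.13, Smtn 1.75, Mylk 0.62, Cacna1h 0.78, Cald1 2.48 and Ppp1r12b 0.32, with Mylk 0.84 and Cald1 1.75 against breast. With 54135 read by its cell type label, Pdlim3 in CD31 breast stood at -0.64, Cald1 in CD31 lung at -0.78, Tes in the breast effect at -1.14, and Cacna1h 0.79 and Tpm2 0.88 in the lung effect. Without a lung library other than 51435, Actg2 in PDGFRβ lung kept its direction, at up to 1.64. The causes of these shifts were not tested. DESeq2's scaling moved the median gene by -0.116 in PDGFRβ breast, -0.121 in PDGFRβ lung, 0.166 between sorts in non-tumor and -0.145 in the lung effect, and upper-quartile scaling by 0.12, 0.139 and -0.116 in non-tumor, breast and the lung effect.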
